A study of Rattus norvegicus with 6 samples.

Results

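The arrays carried 929 CpG-rich probes among 45751 rat probes, which is 2.03% of the design. A probe is a 60-base DNA oligo fixed to the array, and it was counted as CpG-rich when its letters held 4 or more CpG dinucleotides (a C directly followed by a G). It also had to hold neither poly(A) signal hexamer (AATAAA or ATTAAA) and fewer than 2 copies of the AU-rich pentamer ATTTA. The choice rested on the deposited probe letters alone and on no measured value. A further 70 probes with 4 or more CpG were set aside because they held a hexamer, and 0 because of pentamers. The class with 4-5 CpG had 723 probes and the class with 6 or more CpG had 206, up to 15 CpG in 1 probe. The comparison set followed the same hexamer and pentamer rule and held 0 or 1 CpG, with 29083 probes on the design.

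All 6 samples were total RNA of INS-1 cells, an insulin-secreting line from a rat islet tumour that stands in for beta cells, each labelled with Cy3 and read on its own 1-colour array for lncRNAs and mRNAs. In 3 samples the cells had been exposed to geniposide, a plant-derived iridoid glycoside that the labels class as a GLP-1 receptor agonist, at 10 µmol/L for 24 h. The other 3 samples were untreated cells. The labels name no vehicle. They are silent on whether replicates were separate cultures, and the p-values therefore reflect only how far these samples scatter, which can be technical scatter.

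In mammalian genomes CpG is rarer than base composition alone would give, because cytosine in this context is often methylated and methylcytosine tends to mutate to thymine. CpG-dense stretches persist mainly in CpG islands, which lie at the start of many genes and are usually unmethylated. An oligo with many CpG is also rich in G and C, which strengthens base pairing on an array, so each class was set beside probes of the same G+C count.

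The sequences that carry the results follow, 5′ to 3′, with each CpG in capitals. The first set shows the range of the rule, from 4 CpG in a probe with 27 G or C bases to the probe with the most, 15 CpG, and 1 of the 5 probes with 12, the next highest number.

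RATLNCRNA_10387: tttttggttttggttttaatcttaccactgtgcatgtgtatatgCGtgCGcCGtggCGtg

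RATLNCRNA_45121: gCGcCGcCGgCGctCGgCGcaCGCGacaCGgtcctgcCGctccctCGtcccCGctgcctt

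RATLNCRNA_36044: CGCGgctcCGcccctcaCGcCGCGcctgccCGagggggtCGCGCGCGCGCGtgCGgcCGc

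A second set holds the other members with the smallest p-values in the geniposide comparison whose letters are shown, 2 of 4-5 CpG and 2 of 6 or more CpG. The last of these also ends in the motif described at the close.

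RATLNCRNA_10057: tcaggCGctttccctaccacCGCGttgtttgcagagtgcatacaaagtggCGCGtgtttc

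RATLNCRNA_33537: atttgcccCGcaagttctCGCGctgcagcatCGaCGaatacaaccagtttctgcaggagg

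RATLNCRNA_28474: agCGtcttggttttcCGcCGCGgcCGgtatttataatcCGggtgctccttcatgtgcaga

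RATLNCRNA_43986: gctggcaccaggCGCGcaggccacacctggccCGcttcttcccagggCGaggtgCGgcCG

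The next set shows 4 probes whose 60 bases match RefSeq's promoter windows of build GRCr8 on the gene's own strand: Adcyap1r1 at chr4:85924129-85924188, Slc4a4 at chr14:19468351-19468410, Btbd2 at chr7:9712224-9712283 and Rbm15b at chr8:116425415-116425474.

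RATLNCRNA_36253: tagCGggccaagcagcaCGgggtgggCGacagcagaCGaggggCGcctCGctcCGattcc

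RATLNCRNA_38184: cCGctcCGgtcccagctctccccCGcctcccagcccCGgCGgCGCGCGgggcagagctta

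RATLNCRNA_40993: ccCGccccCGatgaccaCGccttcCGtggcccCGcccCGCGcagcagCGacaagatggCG

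RATLNCRNA_14211: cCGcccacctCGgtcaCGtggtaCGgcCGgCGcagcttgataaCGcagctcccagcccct

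Another set shows 3 probes that lie within miRNA hairpins of RefSeq GRCr8, the first in Mir375 (chr9:83906582-83906641, minus strand) and the others in Mir149 (chr9:100861829-100861888 and chr9:100861826-100861885, plus strand). The Mir149 probes overlap in all but a few bases.

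RATLNCRNA_13608: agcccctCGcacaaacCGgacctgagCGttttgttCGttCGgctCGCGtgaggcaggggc

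RATLNCRNA_18047: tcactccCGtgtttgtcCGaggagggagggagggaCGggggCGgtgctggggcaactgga

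RATLNCRNA_25842: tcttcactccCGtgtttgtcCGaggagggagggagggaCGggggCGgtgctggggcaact

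The mature miRNAs from these 2 hairpins that the probes hold whole are given next as RefSeq lists them, with the seed (bases 2 to 8) in capitals. Their seeds differ.

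rno-miR-375-3p: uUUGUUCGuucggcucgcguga

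rno-miR-149-3p: gGGACGGGggcggugcug

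Between 61.3% and 67.4% of all analysed probes were well above background on an array, and the lowest correlation between any 2 arrays was 0.994. Geniposide array 3 had the lowest share. Geniposide array 1 had 49 marked probe spots, against 2 to 6 on each of the other arrays. Geniposide arrays 2 and 3 lay on a second slide row that held no untreated array, whereas geniposide array 1 and the 3 untreated arrays shared the first row. All 929 CpG-rich probes could be analysed, and 328 of them were spotted 2 times per array. Levels are log2 processed intensities minus the array's 75th percentile, so a probe at 0 sits at that percentile. Precision is limited by the 3 arrays in each group.

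The CpG-rich probes as a whole were brighter and more often detected than CpG-poor probes, and the class with 6 or more CpG most of all. In untreated cells the median level was -3.61 for 29062 analysed probes with 0 or 1 CpG, -3.48 for 6224 probes with 2 or 3, -3.36 for the 4-5 CpG class and -2.29 for 6 or more CpG. The share of probes well above background on all 6 arrays was 57.5%, 58.5%, 63.1% and 78.2% in the same order. Conversely, 23.8% of the 4-5 CpG class and 15.5% of the 6 or more CpG class were above background on no array, against 30.7% of the comparison probes. Around the limit of the rule, the median level was -3.45 for the 1572 probes with 3 CpG and -3.36 for the 531 probes with 4. Detection on all 6 arrays was 58.5% and 62.9%, and the median G+C count 27 and 32. Per array, the median of the 6 or more CpG class ranged from -2.43 to -2.28 with geniposide and from -2.40 to -2.20 without, so the groups overlapped.

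These classes differ in base composition, with a median of 25 G or C bases in the comparison probes, 33 in the 4-5 CpG class and 42 in the 6 or more CpG class. When each member was set beside comparison probes of its own G+C count, the order turned round. A count was used where it held at least 10 comparison probes, which left 669 of 723 members with 4-5 CpG and 72 of 206 with 6 or more, none with more than 36 G or C bases. In untreated arrays the 4-5 CpG class had a median of -3.46 ± 0.02 (SD, n = 3) against -3.07 ± 0.03 for matched probes. The gap was -0.39 ± 0.02 over untreated arrays and -0.46 ± 0.02 over geniposide arrays. It was negative on each of the 6 arrays, between -0.48 and -0.38. For 6 or more CpG the untreated gap was -1.10 ± 0.07 and the geniposide gap -0.88 ± 0.08, again below 0 on each array, from -1.18 to -0.81. Taken on each probe's mean over the untreated arrays, the gaps were -0.43 and -1.12. These SDs are between arrays that measured the same probes and say nothing of how probes vary among themselves.

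Detection showed the same turn. With G+C matched, 61.1% of the 4-5 CpG class was well above background on all 6 arrays against 66.2% of comparison probes. The values for 6 or more CpG were 62.5% against 74.3%. On single arrays the detection gap of the 4-5 CpG class lay between -5.16 and -2.49 percentage points and that of the 6 or more CpG class between -15.2 and -7.54.

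The gap differed between G+C counts. From 21 to 26 G or C bases the median untreated level was -3.66 for 63 probes with 4-5 CpG against -3.44 for 17228 comparison probes, although 61.9% against 57.7% were detected on all 6 arrays. From 27 to 32 bases the 11 probes with 6 or more CpG were at -5.53 against -3.89 for 10576 comparison probes. At 27 G or C bases, the 186 probes with 4-5 CpG had a median untreated level of -3.62, above the -3.97 of 9638 comparison probes, and 58.1% against 54.8% were detected on all arrays. At 33 bases the medians went down with the number of CpG, from -2.95 in 1081 comparison probes through -3.18 in 870 probes with 2 or 3 CpG and -3.50 in 263 with 4-5, to -3.98 in 29 with 6 or more. At 36 bases 61 comparison probes had a median of -1.76, 78 probes with 4-5 CpG had -3.76 and 28 with 6 or more had -3.36. Spread within each set was wide: at 33 bases the quartiles were -5.86 and -1.37 in the 4-5 CpG class and -4.90 and -0.96 in the comparison probes. Above 36 bases comparison probes were too few to match (14 from 37 to 42 bases and 2 above). There the 6 or more CpG class was bright, with a median of -1.28 over the 99 probes with 43 to 53 G or C bases.

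The gap was smaller among probes that passed the filter used for the geniposide comparison, which asked that a probe be well above background throughout 1 or both groups. There the untreated gap was -0.24 for 4-5 CpG and -0.36 for 6 or more CpG. Over all matched probes, filtered or not, the untreated gap was -0.17 and -0.43 with background corrected by the normexp method and an offset of 50. An added offset narrows log2 gaps between dim probes, and its part here was not tested.

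No CpG-rich probe passed the adjusted threshold between geniposide-treated and untreated cells. Of the 929 members, 670 passed the filter, 504 with 4-5 CpG and 166 with 6 or more. Of these, 51 passed through the untreated arrays alone and 2 through the geniposide arrays alone. In limma's moderated test over all 29246 probes that passed, 0 members and 0% of all probes had a Benjamini-Hochberg adjusted p under 0.05, and the smallest adjusted p of a member was 0.109. Without adjustment, 58 members had a p under 0.05, which is 8.66%, against 12.4% of all probes. Higher with geniposide were 20 members, or 2.99%, against 7.33% of all probes. Lower with geniposide were 38 members, or 5.67%, against 5.05%. For 94 members (14.0%) the geniposide and untreated values did not overlap, against 21.2% of all probes tested. Of these, 34 were higher with geniposide, or 5.07%, where the share over all probes was 9.7%, and 60 were lower, or 8.96%, where it was 11.5%.

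That members had a smaller share of such calls than all probes depended on the setting. The order turned without geniposide array 3 (13.7% of members against 12.4%), with the slide row as a fixed term (10.1% against 8.97%) and with scaling on spike-in probes (5.37% against 3.71%). The next values hold for all 6 arrays and the 75th-percentile scaling. With G+C matched, 2.42% of the tested 4-5 CpG probes were higher at an unadjusted p under 0.05 against 7.05% of comparison probes, whereas 5.27% against 5.71% were lower. Matching on both G+C count and level, with levels split in 3 parts of equal size, gave 2.32% against 6.89% on the higher side. For 6 or more CpG only 48 tested members could be matched. Of these, 6.25% against 6.35% were higher and 2.08% against 5.14% were lower. Calls at this threshold are counts of probes in 1 set of 6 arrays and were not tested against each other.

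Differences were small in every class. The median of geniposide minus untreated was -0.01 in the 4-5 CpG class, -0.04 in the 6 or more CpG class, 0.00 in the comparison probes and -0.01 over all probes tested. Matched on G+C, the median was -0.0043 for 4-5 CpG against -0.0019 for comparison probes, and -0.0035 for 6 or more CpG against -0.0074. The lower median of the whole 6 or more CpG class therefore lay in its probes above 36 G or C bases: it was -0.06 over 31 tested probes of 37 to 42 bases and -0.07 over 87 of 43 to 53. Those have no matched comparison. With the slide row as a fixed term, which compares geniposide array 1 with the 3 untreated arrays of its row, the median of the 6 or more CpG class was -0.11, against -0.01 over all probes. Left without geniposide array 1 it was -0.01. Among tested members, 3 differed by 2-fold or more as measured, and 0.188% of all tested probes did.

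CpG-rich probes varied more between arrays of a group than their matches. The median SD over the 3 geniposide arrays was 0.130 in the 4-5 CpG class against 0.108 in probes of the same G+C count, and 0.159 against 0.099 for 6 or more CpG. Over the untreated arrays the values were 0.090 against 0.079 and 0.098 against 0.076. Matching on level as well left the geniposide values at 0.130 against 0.110 and 0.162 against 0.101. Within an array, by contrast, the 2 spots of a duplicated probe differed by a median of 0.118 in 147 matched members with 4-5 CpG against 0.129 in comparison probes. In the 4-5 CpG class the larger spread was seen between arrays and not between spots of 1 array. The spot values cover only duplicated probes detected on all 6 arrays, whereas the SDs cover all tested probes. For 6 or more CpG only 8 such members could be matched, at 0.098 against 0.127, too few to say. What the spread between arrays moved with was not tested.

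Among members with 4-5 CpG, the smallest p-values on the higher side belonged to RATLNCRNA_10387 and RATLNCRNA_18047. The level of RATLNCRNA_10387 was -2.81, -2.64 and -2.44 with geniposide and -3.38, -3.20 and -3.35 without. Its groups did not overlap, with a difference of 0.68 ± 0.10 (SE), or 1.60-fold, and a limma adjusted p of 0.124. RATLNCRNA_18047, in the Mir149 hairpin, gave -3.84, -3.92 and -3.79 against -4.22, -4.18 and -4.41. The difference was 0.42 ± 0.08 (SE), or 1.34-fold, with a limma adjusted p of 0.137. Both were dim, with median untreated processed intensities of 39.7 and 19.0.

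On the lower side, RATLNCRNA_10057 had the smallest p of all members. It gave -3.93, -3.93 and -3.92 with geniposide and -3.57, -3.47 and -3.43 without. The difference was -0.44 ± 0.06 (SE) at a limma adjusted p of 0.109, and the geniposide arrays lay within an SD of 0.006. RATLNCRNA_33537 was well above background on the 3 untreated arrays, at -4.98, -4.59 and -4.88, and on 0 geniposide arrays. Its geniposide values of -5.29, -5.45 and -5.51 give only a bound, at least 1.20-fold lower, with a limma adjusted p of 0.142. It passed the filter only through the group where it is high, which favours this direction, so these values support no difference. Such a bound sets the untreated mean against the dimmest signal that counts as above background on each geniposide array.

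Among members with 6 or more CpG, RATLNCRNA_28474 was at -3.41, -3.25 and -3.08 with geniposide and at -3.83, -3.98 and -3.83 without. Its difference of 0.63 ± 0.09 (SE) corresponded to 1.55-fold at a limma adjusted p of 0.124. The next on the higher side, RATLNCRNA_28902, differed by 0.33 ± 0.08 (SE) at an adjusted p of 0.194. On the lower side RATLNCRNA_43986 gave -1.07, -0.98 and -0.99 against -0.72, -0.60 and -0.61. The difference was -0.37 ± 0.06 (SE) with a limma adjusted p of 0.126. RATLNCRNA_9894 gave -4.05, -4.17 and -4.03 against -3.54, -3.69 and -3.78, a difference of -0.41 ± 0.08 (SE). None of these probes passed, and those above background on all 6 arrays kept their sign under each alternative run.

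The brightest members showed no difference beyond their spread. In the 4-5 CpG class RATLNCRNA_42295 was at 8.91, 9.03 and 9.28 with geniposide and 9.29, 9.08 and 9.04 without. The difference was -0.06 ± 0.11 (SE). RATLNCRNA_11745 differed by -0.07 ± 0.10 from an untreated mean of 9.05. In the 6 or more CpG class RATLNCRNA_38691 differed by -0.09 ± 0.12 from 8.66, and RATLNCRNA_43237 by -0.13 ± 0.11 from 6.67. The adjusted p of these 4 probes lay between 0.656 and 0.842 in limma's test, and in each geniposide array 3 was the brightest of its group. The probe with the most CpG, RATLNCRNA_36044 with 15, differed by -0.07 ± 0.07 from -1.46. Next came 5 probes with 12 CpG, at untreated levels from -6.59 to 1.88, of which 4 were detected on all 6 arrays. RATLNCRNA_45121, the highest of these in level, differed by -0.11 ± 0.08. No gene name is available here for most of these probes, because names were read only from exact matches to RefSeq's promoter and miRNA tables.

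CpG-rich probes lay at annotated gene starts more often than CpG-poor ones. RefSeq's windows run from 250 bases before to 50 bases after the start of 33469 genes, and a match needed 30 shared bases on either strand. Such a match was found for 53 of 723 probes with 4-5 CpG (7.33%) and 35 of 206 with 6 or more (17.0%), against 268 of 29062 comparison probes (0.922%). With G+C matched the shares were 7.03% against 1.84% and 9.72% against 2.47%. The match used only letters and no array value. Among the 88 matched members, 55 had the strand of the gene and 40 the opposite strand, including 7 with both. These 7 matched neighbouring genes, except RATLNCRNA_10920 and RATLNCRNA_44512. Each of those matched genes on several chromosomes over only part of its bases. Deposited letters appear to run in transcript direction: 7075 probes of the array held AATAAA and 1913 its reverse complement TTTATT. The gene-start members had a median untreated level of -1.82, and 71 of 88 were detected on all 6 arrays. For the 53 that matched 1 gene over all 60 bases the median was -3.03, and 41 were detected on all 6. The median of all CpG-rich probes was -3.10. Of the 75 tested among the 88, 7 had an unadjusted p under 0.05 (9.33%, against 12.4% of all probes), 2 higher and 5 lower. The smallest limma adjusted p was 0.126.

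Probes on the gene's strand read RNA from before, across or after the annotated start. At Rpl41 and Usp15, for example, all matched bases lay after it. The Slc4a4 probe (an electrogenic sodium bicarbonate cotransporter) covers bases 128 to 69 before the start and was bright. It measured 4.69, 5.05 and 5.17 with geniposide and 5.37, 5.02 and 4.85 without, a difference of -0.11 ± 0.17 (SE). The Btbd2 probe, from 45 bases before to 14 after the start, gave 3.57, 3.66 and 3.72 against 3.94, 3.75 and 3.66. The groups overlapped in both. Adcyap1r1 encodes the receptor for PACAP, which couples to cAMP in beta cells. Its probe, from 42 bases before to 17 after the start, was dim at -3.81, -3.22 and -3.66 against -3.82, -3.61 and -3.43. The smallest p on the gene's strand was at Rbm15b, an RNA-binding protein of the m6A methylation machinery. It read -1.15, -0.89 and -1.09 with geniposide and -0.63, -0.67 and -0.81 without. That difference of -0.34 ± 0.09 (SE) had a limma adjusted p of 0.227. On the higher side were Gpt2, a mitochondrial alanine aminotransferase, with a difference of 0.15 ± 0.06 (SE), and LOC134480784 with 0.16 ± 0.06. Both had groups that did not overlap and limma adjusted p of 0.366 and 0.365. The probe at LOC134480784 is the short stretch AGGCGG repeated over its whole length, so it need not read that gene alone. The 12 gene-start members above background on no array included those at Ncor1, a nuclear receptor corepressor, at -7.68 ± 0.08 (SD, n = 3), and at Kcnq5, a potassium channel, at -5.74 ± 0.31.

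Antisense members read RNA of the strand opposite to the gene, from before, across or after its annotated start. At Mroh8, for example, all matched bases lay after it. RATLNCRNA_43986 lies 116 to 57 bases before the start of Dsp, which encodes the desmosomal protein desmoplakin, on the opposite strand (chr17:26877178-26877237). The 15-CpG probe RATLNCRNA_36044 lies 188 to 129 bases before Arl4a, a small GTPase, at chr6:62811426-62811485. At Yy1, a zinc-finger transcription factor, the antisense probe RATLNCRNA_33833 read -0.80, -0.72 and -0.71 against -0.80, -0.67 and -0.80, with overlapping groups. RATLNCRNA_5034 covers the 59 bases before the start of Meaf6, a subunit of histone acetyltransferase complexes, and its first base. It gave 0.65, 0.78 and 0.98 with geniposide and 0.95, 0.78 and 0.80 without. RATLNCRNA_19736 shares 41 bases with the antisense strand at Rilpl1 and had the largest measured difference of all gene-start members. Its values were 1.87, 3.07 and 1.57 with geniposide and 3.61, 3.34 and 3.30 without. The difference of -1.25 ± 0.37 (SE), or 2.37-fold, had a limma adjusted p of 0.270, and geniposide array 2 lay close to the untreated arrays. The other antisense members with an unadjusted p under 0.05 were RATLNCRNA_40578 at Mroh8, with a difference of -0.24 ± 0.05 (SE), and RATLNCRNA_11257 at Desi1, with -0.30 ± 0.09. The latter runs from 43 bases before to 16 after the start of Desi1. It also shares 38 bases with the window of Xrcc6, a subunit of the Ku DNA repair complex, on that gene's strand. No gene of the lists for beta cells, other islet cells, exocrine, stromal and immune cells, GLP-1 and cAMP signalling, or CpG methylation was matched by a member. Windows existed for 13 of the 20 beta-cell genes, but with no member in them the cells' identity could not be checked through these probes.

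A group of 48 members (5.17%) lay within annotated miRNA hairpins, sharing at least 25 bases. The share in comparison probes was 0.932%, but with G+C matched the order turned: 3.29% against 5.04% for 4-5 CpG and 6.94% against 11.2% for 6 or more CpG. Hairpin members were dim, with a median untreated level of -4.64. On all 6 arrays 23 were detected and on none 19. Those on chromosome 6 formed the largest group, with 15 members inside 0.808 megabases, and 8 of them were above background on no array. Of 25 tested, 2 had an unadjusted p under 0.05, or 8%, against 12.4% of all probes, and 0 passed limma's adjusted threshold. A 60-base probe is longer than a mature miRNA, so it reads hairpin-containing RNA.

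Mir375 is known as an abundant islet miRNA that restrains insulin secretion. Its probe holds 7 CpG, and miR-375-3p alone holds 4. It read -2.66, -2.66 and -2.62 with geniposide and -2.85, -2.63 and -2.59 without. The difference was 0.04 ± 0.08 (SE) at a limma adjusted p of 0.839, and the groups overlapped. The second Mir149 probe, RATLNCRNA_25842, shares nearly all its letters with RATLNCRNA_18047 and read -4.35, -3.92 and -2.73 against -4.15, -4.39 and -4.56. Its difference of 0.71 ± 0.39 (SE) had the same sign, but its groups overlapped and its limma adjusted p was 0.509. Several hairpin probes were well above the 75th percentile: untreated means were 3.22 ± 0.02 (SD, n = 3) in Mir615 and 2.51 ± 0.09 in Mir935. Mir484, at 1.70 ± 0.04, differed by 0.08 ± 0.07 (SE). Mir182, known in sensory organs, was at -4.02 ± 0.05 and differed by 0.14 ± 0.06 (SE) at a limma adjusted p of 0.435.

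The class with 6 or more CpG had a sequence feature at its 3′ end that the rule did not use. The hexamer CGGCCG closes the probe, or stops 1 base short of its end, in 40 members, 35 with 6 or more CpG and 5 with 4-5. Elsewhere in the members it occurred 32 times, spread over 24 positions with 1 to 3 occurrences each. The octamer GCGGCCGC, the recognition sequence of the restriction enzyme NotI (its own reverse complement), was found in 18 of 45718 analysed probes, and in every one within 2 bases of the 3′ end. Of these 18, 14 had 6 or more CpG. The hexamer adds 2 CpG to a probe. Of the 40 members, 6 lay at gene starts, and 4 of these matched RefSeq's windows over all 60 bases, RATLNCRNA_43986 and RATLNCRNA_36044 among them. In those 4 the end letters are part of the genome build. Where the end comes from in the other members was not tested. In the next examples the capitals mark the hexamer.

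RATLNCRNA_12188: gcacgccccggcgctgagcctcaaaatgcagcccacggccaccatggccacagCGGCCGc

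RATLNCRNA_1086: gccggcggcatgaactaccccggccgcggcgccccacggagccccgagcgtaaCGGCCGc

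RATLNCRNA_39108: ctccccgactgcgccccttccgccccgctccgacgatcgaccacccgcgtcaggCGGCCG

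RATLNCRNA_18114: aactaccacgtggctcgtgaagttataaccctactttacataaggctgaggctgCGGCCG

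These 40 probes ranged from -7.46 to 4.02 in untreated level, with a median of -2.53, and 29 were detected on all 6 arrays. Among the 29 tested, 25 were lower with geniposide, against 54.2% of all tested probes and 63.3% of the 139 tested probes with 6 or more CpG that lacked this end. The median difference of the 29 was -0.07. A closer set was the 64 tested probes with 6 or more CpG and 43 or more G or C bases without the end. Their median was -0.06, and 71.9% of them were lower. At an unadjusted p under 0.05, 7 of the 29 were lower (24.1%, against 5.05% of all probes) and 0 higher (against 7.33%). Over all 166 tested probes with 6 or more CpG, those with this end included, 7.83% were lower and 4.22% higher. RATLNCRNA_12188 read -2.79, -2.74 and -2.74 with geniposide and -2.44, -2.47 and -2.58 without, at a limma adjusted p of 0.186. RATLNCRNA_1086 read -0.92, -0.79 and -0.79 against -0.57, -0.55 and -0.63, at a limma adjusted p of 0.209. In both the groups did not overlap. Relative to each probe's mean, the medians of the 29 were -0.15, -0.05 and -0.01 on the geniposide arrays and 0.11, 0.08 and 0.01 on the untreated ones. Array 3 of each group lay near 0, and geniposide array 1 lay farthest down. In the 64 probes without the end the medians were -0.13, -0.01 and 0.08 with geniposide and 0.08, 0.04 and -0.01 without. There too geniposide array 1 lay farthest down. The part of base composition in this pattern was not tested.

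Members that share sequence are not independent. The 929 members fell into 911 groups by 25 or more shared bases, and 15 groups held more than 1 member, 33 members in all. Within such groups the geniposide differences were often close, but the median size of a difference over all tested members was itself only 0.08. Less close were RATLNCRNA_14228 and RATLNCRNA_35859, with 0.00 and -0.14, and RATLNCRNA_1132 and RATLNCRNA_14819, with -0.09 and -0.22. RATLNCRNA_18214, RATLNCRNA_26342 and RATLNCRNA_34594 overlap and had differences of -0.04, 0.00 and -0.03. RATLNCRNA_42295 and RATLNCRNA_15978 overlap too, with -0.06 and -0.07. In the group of RATLNCRNA_10340, RATLNCRNA_6854 and RATLNCRNA_8592 the differences were -0.05, -0.11 and -0.03, each with an SE between 0.06 and 0.07. The Mir149 pair, with 0.42 and 0.71, was the farthest apart of those named here, and its second probe had an SD of 0.84 over the geniposide arrays.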

How the data were processed

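The authors deposited 1 scanner file per array, whose values are intensities from Agilent Feature Extraction (version 12.0.3.1 per the file headers, 10.7 per the submitters' processing notes), and a table of log2 expression values whose normalization is not given in the sources used here. The main values were log2 of the deposited processed intensity, averaged over unmarked spots of a probe, minus each array's 75th percentile over 45718 probes. The 33 probes without an unmarked spot on every array were left out, none of them CpG-rich. Probes that the scanner software marked as well above background throughout 1 or both groups were fitted together with lmFit and eBayes of limma 3.58.1 in R 4.3.3, two-sided, with Benjamini-Hochberg adjustment over all 29246. The fit was tested on simulated data. Level and detection were compared within each G+C count, weighted by members. Probes were named by rule: in each class the 2 smallest p in each direction, the 2 highest levels, and the 2 with the most CpG, ties broken by level. Other named probes were chosen after their values were seen. The members and lists were chosen with earlier results of these data known. Alternatives were background correction, scaling, filter, variance model, array weights, slide row, replicate block, the authors' log2 table, other comparison probes and leaving out each array. Gene and miRNA sequences are RefSeq's for GRCr8.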

Additional observations from a re-analysis of the deposited data

How the results depend on the processing

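Of 0 members past the adjusted threshold, 1 appeared with array weights (RATLNCRNA_10057), 2 with a trended, robust variance model (RATLNCRNA_10387 at 0.68 and RATLNCRNA_43986 at -0.37), 1 with the slide row as a fixed term (RATLNCRNA_9357), and 6 with spike-in scaling, which moved the median difference of all probes by -0.12. Over all probes these settings called 54, 173, 1 and 126. Leaving out 1 array gave 0 to 1: RATLNCRNA_27564 without geniposide 1 and RATLNCRNA_1734 without geniposide 3. The 58 members at an unadjusted p under 0.05 became 99 with array weights, 104 with median scaling, 36 with normexp, 36 with spike-in scaling, and 44 to 92 without 1 array, 92 without geniposide 3. As shares, members against all probes, these were 8.66% against 12.4% with the main setting, 14.8% against 16.6%, 15.5% against 19.0%, 5.37% against 7.38%, 5.37% against 3.71% and, without geniposide 3, 13.7% against 12.4%. Lower calls made up 65.5% of members' calls against 40.8% over all probes, and 90.4% against 77.8% with median scaling. The values were 77.8% against 63.4% with spike-in scaling and 76.1% against 52.1% in the authors' log2 table. For probes detected on all 6 arrays they were 61.2% against 38.7%. With no filter they were 54.4% against 27.1%, and without geniposide 1 they were 57.7% against 41.8%. With the replicate block the counts were 0 and 62. Correlations of deviations between arrays of equal number were -0.0039, 0.018 and -0.097. The labels do not say whether equal numbers pair samples, and so few arrays cannot settle it.

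The matched level gap of -0.43 for 4-5 CpG, on untreated means, became -0.17 with normexp, -0.12 for probes detected on all 6 arrays, -0.24 for probes that passed the filter, -0.56 against comparison probes with any hexamer or pentamer, -0.46 against those with 0 CpG, and -0.43 to -0.41 without 1 array. For 6 or more CpG, -1.12 became -0.43, -0.41 and -0.36 in the first 3 of these, -2.02 against 0 CpG, -1.28 with 1 probe per overlap group and -1.44 without gene-start matches. The detection gap of 4-5 CpG, -5.06 points, became -6.27 with any hexamer or pentamer, -5.85 against 0 CpG and -5.26 to -3.51 without 1 array. That of 6 or more CpG, -11.8, became -14.5 without gene-start matches and -13.1 to -9.21 without 1 array. The matched difference between groups for 4-5 CpG, -0.0024, ran from -0.012 without geniposide 3 to 0.0080 without geniposide 2, and that for 6 or more CpG, 0.0038, from -0.0095 to 0.031 without 1 array, so neither kept its sign. The cause was not tested. Spike-in scaling, the passed-filter levels, gene-start matches and matching on level were chosen after seeing the data. For 21 named probes, 365 of 377 alternative differences kept their sign. RATLNCRNA_19736 passed with spike-in scaling, at -1.37. Dim probes such as RATLNCRNA_33537 have only a bound where a group is near background.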
